A study of Rattus norvegicus with 22 samples.

Results

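The hypoxia-inducible factor (HIF) target genes examined here are 10 genes chosen by symbol: Bhlhe40, Cited2, Pfkfb3, Mxi1, P4ha1, Vegfa, Egln1, Egln3, Bnip3 and Adm. A member was measured by the probe set whose annotation gave that symbol and no other, and the brighter probe set was taken where there was more than 1. This gave 9 measured members among the 18166 genes of the arrays. Bnip3 was left out, because its probe set is also annotated to the pseudogene Bnip3-ps1. No filter on low values was applied, so all 9 entered the comparison.

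Liver RNA from 22 female Crl:CD(SD) rats, an outbred Sprague-Dawley stock, was hybridised to 1 Affymetrix whole-transcript array per animal. The 10 GSK932121A rats received a single intraperitoneal dose of 50 mg/kg of GSK932121A, which the series title describes as an inhibitor of complex III of the mitochondrial electron transport chain, and their livers represent 5 hours of treatment. The 12 vehicle rats received the same formulation without the compound (0 mg/kg), and the labels give no interval for them. All animals were 12 weeks of age and were dosed at 10 mL/kg, the tissue was the median lobe, and 2 dosed rats with low plasma exposure had been left out by the submitters. Hepatocyte markers were bright in both groups, with Alb, the albumin gene, averaging a log2 value of 13.38 ± 0.04 after GSK932121A, and 13.41 ± 0.03 in the vehicle group (SD, n = 10 and 12). Array medians over genes lay between 5.34 and 5.40, and no pair of arrays was identical. The replicates are separate animals, called here by the number their labels give, and their number limits the precision of each value. In whole liver, fewer cells of a type and less RNA per cell cannot be told apart.

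HIF is a transcription factor made of an oxygen-sensitive alpha subunit and the stable partner ARNT. When oxygen is plentiful, prolyl hydroxylases of the EGLN family mark the alpha subunit, which the VHL ubiquitin ligase then sends for degradation. When oxygen is scarce, the alpha subunit lasts, and the dimer binds short core motifs (ACGTG or GCGTG) near genes for glycolysis, blood vessel growth, matrix synthesis, mitophagy and feedback on HIF itself. In liver, oxygen falls along the path of the blood from the portal to the central vein, and HIF activity is counted among the signals that follow it. An array measures the messenger RNA of these genes, not the HIF protein.

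The 250 bases before the start of the 5 members that passed the comparison below are printed to show where the core motif occurs in them. Sequences are from RefSeq (build GRCr8), 5′ to 3′ on the plus strand, which is the strand of all 5 genes, and capitals mark each match to ACGTG or GCGTG on either strand. Overlapping matches on opposite strands run together as CACGTG, the palindromic E-box that also belongs to the recognition sites of BHLHE40 and of MAX dimers. The windows are chr4:143174200-143174449 for Bhlhe40, chr1:14132053-14132302 for Cited2, chr17:71944683-71944932 for Pfkfb3, chr1:262348392-262348641 for Mxi1 and chr20:27844796-27845045 for P4ha1.
Bhlhe40: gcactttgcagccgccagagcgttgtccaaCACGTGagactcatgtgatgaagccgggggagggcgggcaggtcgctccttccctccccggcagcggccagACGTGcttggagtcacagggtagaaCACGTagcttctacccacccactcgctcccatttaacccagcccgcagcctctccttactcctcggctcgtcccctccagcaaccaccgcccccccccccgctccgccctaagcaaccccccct
Cited2: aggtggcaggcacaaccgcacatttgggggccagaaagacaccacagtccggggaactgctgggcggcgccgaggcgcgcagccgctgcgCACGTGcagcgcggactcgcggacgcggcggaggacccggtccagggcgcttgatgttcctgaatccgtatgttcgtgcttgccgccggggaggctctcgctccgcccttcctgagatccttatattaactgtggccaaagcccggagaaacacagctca
Pfkfb3: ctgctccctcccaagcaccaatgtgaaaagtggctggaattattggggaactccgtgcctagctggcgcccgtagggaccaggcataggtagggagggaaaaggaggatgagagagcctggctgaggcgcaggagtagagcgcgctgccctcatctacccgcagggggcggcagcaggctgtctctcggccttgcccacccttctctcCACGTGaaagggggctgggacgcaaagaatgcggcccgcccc
Mxi1: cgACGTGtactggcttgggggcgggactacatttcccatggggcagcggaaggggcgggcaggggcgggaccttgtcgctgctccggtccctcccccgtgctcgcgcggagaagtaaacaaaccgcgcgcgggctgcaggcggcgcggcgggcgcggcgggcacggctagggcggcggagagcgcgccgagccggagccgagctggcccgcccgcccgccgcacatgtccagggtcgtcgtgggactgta
P4ha1: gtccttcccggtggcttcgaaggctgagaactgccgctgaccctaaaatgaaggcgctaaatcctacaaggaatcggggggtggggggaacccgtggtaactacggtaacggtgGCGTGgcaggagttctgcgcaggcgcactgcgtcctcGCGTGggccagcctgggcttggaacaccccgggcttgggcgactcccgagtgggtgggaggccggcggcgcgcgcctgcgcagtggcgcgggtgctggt

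The windows of Bhlhe40, Cited2 and Pfkfb3 each held 1 CACGTG, at positions -220 to -215, -160 to -155 and -42 to -37 from the start of the gene. Bhlhe40 held further ACGTG matches at -149 to -145 and, on the other strand, at -124 to -120. Mxi1 had a single ACGTG at -248 to -244, and P4ha1 had GCGTG at -136 to -132 and -99 to -95, with no CACGTG in either window. Among the other members, Egln1 had 1 GCGTG and Bnip3 had 4 matches with 1 CACGTG, whereas Adm, Egln3 and both annotated starts of Vegfa had none. Over all 33469 RefSeq promoter windows of the same length, 36.7% held ACGTG or GCGTG on either strand and 5.59% held CACGTG. The GC content of the 5 printed windows, from 63.6% to 74.8%, was above the median of 51.2% over all windows. A match is a run of letters and not a shown binding site, and a window without one says nothing of sites farther away.

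The comparison of GSK932121A with vehicle asked which of these genes differed 5 hours after the dose. The members did not move as a block. Bhlhe40, Cited2 and Pfkfb3 rose, Mxi1 and P4ha1 fell, and Vegfa, Egln1, Egln3 and Adm did not pass. A gene passed at a limma p-value under 0.05 after Benjamini-Hochberg adjustment over all 18166 genes. By this rule 5 of the 9 measured members passed, where 12.4% of all genes did. The 3 rises stand beside 5.31% of all genes that rose, and the 2 falls beside 7.05% that fell. The median log2 difference of the 9 members was 0.11, against -0.01 over all genes, and differences of the members ran from -0.41 to 1.23. These members were chosen with earlier results of the same arrays known, so their counts are a description of the list.

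**Figure D1:**
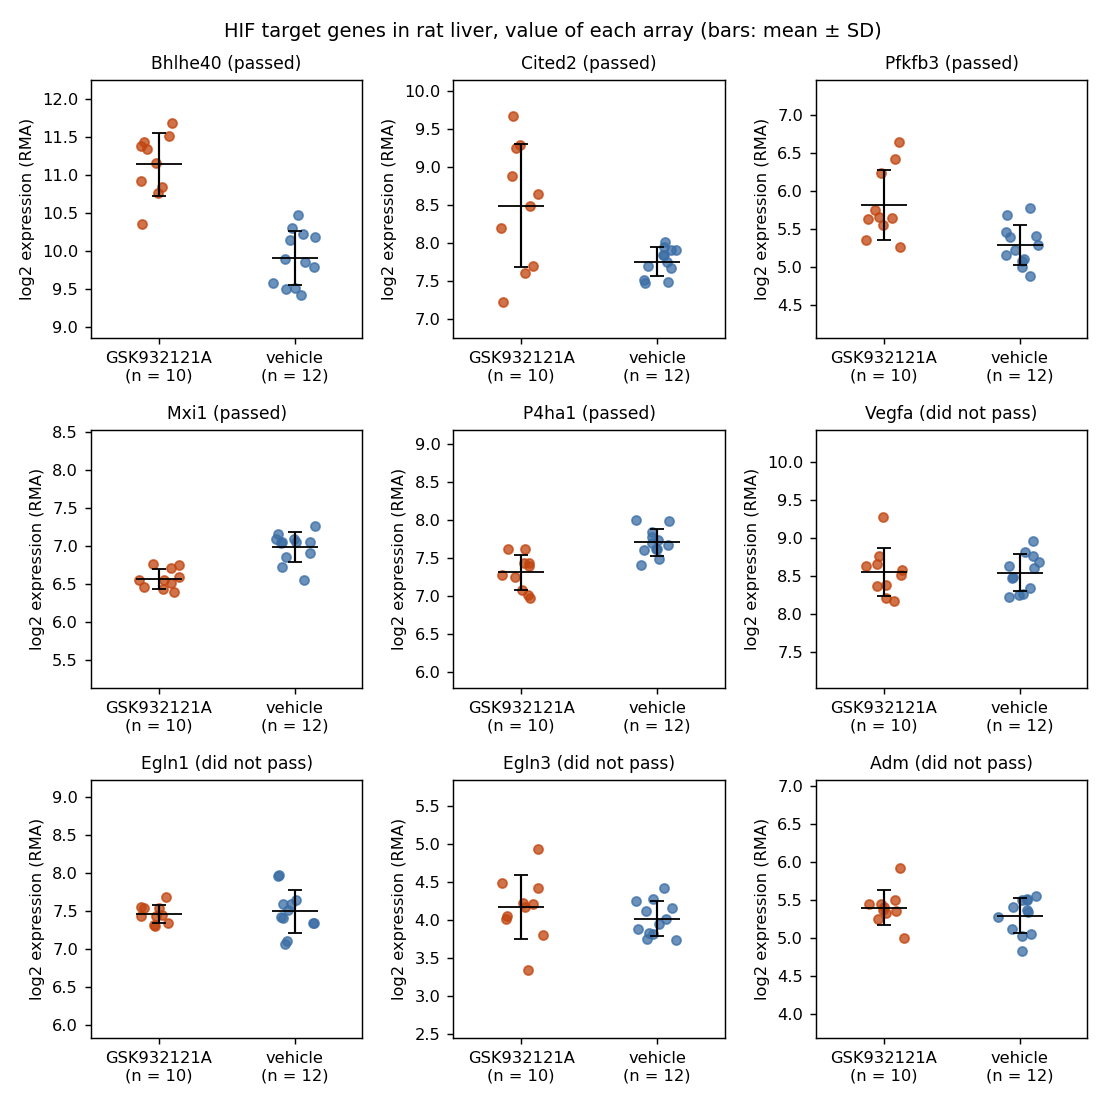
Log2 expression of the 9 measured members on each array, with GSK932121A (n = 10) left of vehicle (n = 12) in every panel, and bars for the mean ± SD. All panels span the same number of log2 units. Bhlhe40 shows 9 treated arrays above every vehicle array, while the treated values of Cited2 are spread from 7.22 to 9.67.

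Bhlhe40 encodes a basic helix-loop-helix repressor that binds E-boxes and links low oxygen to the circadian clock. Its log2 value after GSK932121A had a minimum of 10.36, a median of 11.25 and a maximum of 11.69, against a minimum of 9.42, a median of 9.88 and a maximum of 10.47 after vehicle. In 9 of 10 treated animals the value was above the highest vehicle value, and only animal 24 lay within the vehicle range. Bhlhe40 rose 2.35-fold, with means of 11.14 ± 0.41 after GSK932121A and 9.91 ± 0.36 after vehicle (SD; limma, adjusted p = 2.70e-06). It was the largest difference among the members, and it passed under every one of the 10 alternatives and 22 leave-one-out fits.

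Cited2 encodes a coregulator that competes with the HIF alpha subunit for the coactivators CBP and p300, and so belongs to the feedback on HIF. After GSK932121A its values had a minimum of 7.22, a median of 8.56 and a maximum of 9.67, and after vehicle a minimum of 7.47, a median of 7.79 and a maximum of 8.01. The treated animals thus went both ways: 7 of 10 lay above the highest vehicle value, animals 17 and 20 lay inside the vehicle range, and animal 24 lay below the lowest vehicle value. Cited2 rose 1.67-fold on average, at 8.49 ± 0.81 after GSK932121A and 7.75 ± 0.19 after vehicle (SD; limma, adjusted p = 0.0223). The SD among treated arrays was 4.33 times that among vehicle arrays, a ratio larger than that of 99.8% of all genes, whose median ratio was 1.01. The rise did not pass the Wilcoxon rank sum test (adjusted p = 0.196), and with 5 surrogate variables for hidden factors the difference turned to -0.17 (limma, adjusted p = 0.441).

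Mxi1 encodes a partner of MAX that opposes MYC at E-boxes. Its minimum, median and maximum were 6.40, 6.55 and 6.76 after GSK932121A and 6.55, 7.05 and 7.26 after vehicle. Every treated value lay below 11 of the 12 vehicle values except those of animals 20 and 24, and vehicle animal 10 alone reached down into the middle of the treated group. Mxi1 fell 1.33-fold, at 6.57 ± 0.13 after GSK932121A and 6.99 ± 0.20 after vehicle (SD; limma, adjusted p = 0.000415). A second, dimmer probe set of Mxi1 gave the same direction, with 5.74 ± 0.12 after GSK932121A and 6.09 ± 0.19 after vehicle, and also passed when all 36685 probe sets were tested (1.27-fold lower, adjusted p = 0.00399). With surrogate variables the fall of Mxi1 just failed to pass (log2 difference -0.30, adjusted p = 0.0536).

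Pfkfb3 encodes the enzyme that makes fructose 2,6-bisphosphate, the main activator of the glycolytic enzyme phosphofructokinase. Its values ran from 5.26 over a median of 5.65 to 6.64 after GSK932121A, and from 4.88 over a median of 5.26 to 5.77 after vehicle. Most treated values overlapped the vehicle range, and only animals 13, 14 and 18 exceeded it. Pfkfb3 rose 1.44-fold, at 5.81 ± 0.46 after GSK932121A and 5.29 ± 0.27 after vehicle (SD; limma, adjusted p = 0.0153). This call was lost with the rank sum test (adjusted p = 0.0585) and with surrogate variables (log2 difference 0.25, adjusted p = 0.416).

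P4ha1 encodes the catalytic alpha subunit of collagen prolyl 4-hydroxylase, which modifies collagen before it leaves the endoplasmic reticulum. It had a minimum of 6.97, a median of 7.34 and a maximum of 7.62 after GSK932121A, and a minimum of 7.41, a median of 7.69 and a maximum of 8.00 after vehicle. Of the treated animals 6 of 10 lay below the lowest vehicle value, and the groups overlapped between 7.41 and 7.62. P4ha1 fell 1.32-fold, at 7.31 ± 0.23 after GSK932121A and 7.71 ± 0.18 after vehicle (SD; limma, adjusted p = 0.00252). The fall did not pass with surrogate variables (log2 difference -0.31, adjusted p = 0.131).

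The secreted members did not pass. Vegfa, the main growth factor for blood vessels, had a minimum of 8.17, a median of 8.55 and a maximum of 9.28 after GSK932121A, and a minimum of 8.23, a median of 8.55 and a maximum of 8.96 after vehicle. The groups overlapped almost throughout, apart from treated animal 18, which was above every vehicle animal, and animals 21 and 24, which were below them. The log2 difference of Vegfa was 0.01 with a 95% confidence interval from -0.22 to 0.24 (limma, adjusted p = 0.972), which reaches from 0.857-fold to 1.18-fold. Adm, the vasodilator peptide adrenomedullin, ran from 4.99 over a median of 5.38 to 5.92 after GSK932121A, and from 4.83 over a median of 5.36 to 5.55 after vehicle. Its difference was 0.11, with an interval from -0.09 to 0.31 (limma, adjusted p = 0.546), and only treated animal 22 lay outside the vehicle range. Without that animal the difference of Adm was 0.05, and with surrogate variables 0.02.

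The oxygen-sensing hydroxylases did not pass either. Egln1 encodes PHD2, the main HIF prolyl hydroxylase. Its values ran from 7.30 over a median of 7.45 to 7.68 after GSK932121A, inside the vehicle range of 7.07 to 7.98 with its median of 7.47. The difference of Egln1 was -0.04, with an interval from -0.23 to 0.15 (limma, adjusted p = 0.861), so a change beyond 1.11-fold upwards or 0.852-fold downwards lay outside the interval. Among treated animals Egln1 varied less, with an SD of 0.12 against 0.28 after vehicle, and only 1.19% of all genes had a lower ratio of these SDs. Egln3, the hydroxylase PHD3, whose gene is a strong HIF target in many cells, was dim. Its minimum, median and maximum were 3.35, 4.20 and 4.94 after GSK932121A and 3.74, 3.98 and 4.43 after vehicle. These group medians lay below the median of every array, where small changes are compressed. Treated animals 14 and 21 lay above the vehicle range and animal 13 below it, and the difference of 0.15, with an interval from -0.11 to 0.42, did not pass (limma, adjusted p = 0.526). That difference was 0.07 without animal 14 and 0.25 without animal 13.

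**Figure D2:**
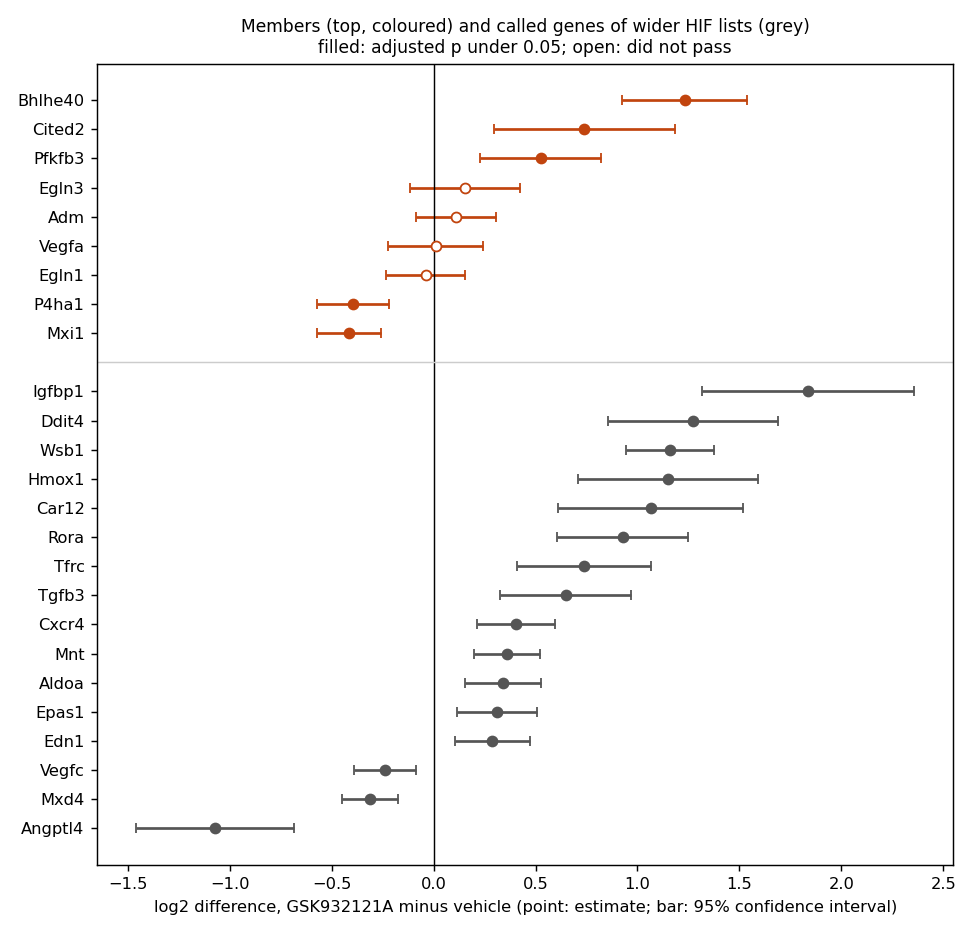
Log2 difference of GSK932121A minus vehicle with its 95% confidence interval, for the 9 measured members (coloured, top) and for the 16 genes of the wider HIF lists that passed (grey, bottom). Filled points passed at an adjusted p under 0.05 and open points did not, and the members run from 1.23 for Bhlhe40 to -0.41 for Mxi1.

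The treated animals differed from each other in how far the members moved. Of the 5 members that passed, animal 24 was the least shifted of the 10 treated animals for Bhlhe40, Cited2, Mxi1 and P4ha1. For Pfkfb3 animal 16 was the least shifted. The order was close for P4ha1, at -0.083 from the vehicle mean in animal 24 and -0.084 in animal 18. It was also close for Mxi1, at -0.223 in animal 24 and -0.238 in animal 20. Animals 13, 14 and 18 were each among the 3 most shifted for 3 of the 5 members. Without animal 24 the log2 differences were 1.32 for Bhlhe40, 0.88 for Cited2, 0.53 for Pfkfb3, -0.44 for Mxi1 and -0.43 for P4ha1. Plasma levels of single animals were not used here, so their part in this spread was not tested.

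**Figure D3:**
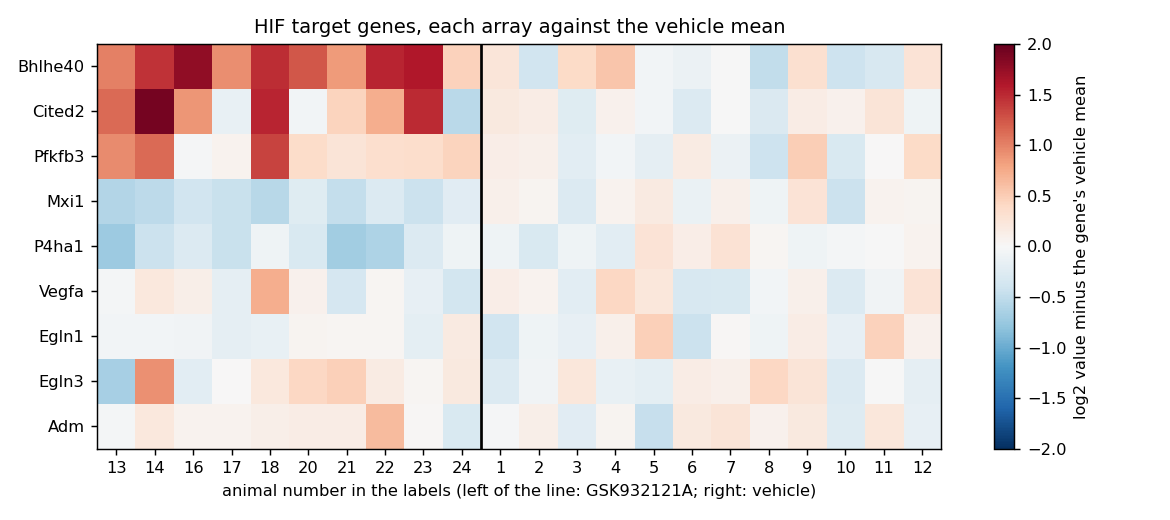
Each array's log2 value minus the vehicle mean of the gene, for the 9 measured members in rows, with the 10 GSK932121A animals left of the line and the 12 vehicle animals right of it. Red is above and blue below the vehicle mean. The row of Bhlhe40 is red in all treated animals, whereas that of Cited2 falls below the vehicle mean in animals 17, 20 and 24.

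All pairs of measured members, whatever their direction, were then compared animal by animal within each group. Over 36 pairs of members in each of the 2 groups, 72 in all, no pair passed after adjustment by Pearson's r or Spearman's rho, and 4 pairs had an unadjusted p under 0.05 by each measure. Among treated animals Bhlhe40 and Cited2 had r = 0.69 (permutation p = 0.0273, adjusted p = 0.496) and rho = 0.61 (permutation p = 0.0666, adjusted p = 0.655), and r was 0.49 without animals 21 and 24. Cited2 and Mxi1 had r = -0.69 (permutation p = 0.0292, adjusted p = 0.496) and rho = -0.66 (permutation p = 0.0439, adjusted p = 0.655), and r was -0.52 without animals 14 and 24. Both relations kept their sign without the animals left out, but neither passed. Pfkfb3 and Vegfa had r = 0.66 (permutation p = 0.0357, adjusted p = 0.496) and rho = 0.38 (permutation p = 0.281, adjusted p = 0.697), but r was -0.06 without animals 14 and 18, so the relation rests on those animals. In vehicle animals Mxi1 and Vegfa had r = 0.59 (permutation p = 0.0397, adjusted p = 0.496) and rho = 0.49 (permutation p = 0.11, adjusted p = 0.655), with r = 0.43 without animals 3 and 10. By rank alone, 3 further pairs had an unadjusted p under 0.05, and each had an adjusted p of 0.655. Among treated animals Cited2 and Vegfa had rho = 0.71 (permutation p = 0.0279) and r = 0.59 (permutation p = 0.0659), and Bhlhe40 and Vegfa had rho = 0.66 (permutation p = 0.0448) and r = 0.60 (permutation p = 0.0618). In vehicle animals Mxi1 and Egln1 had rho = 0.66 (permutation p = 0.0234) and r = 0.49 (permutation p = 0.104). Tests of r and rho were two-sided with 100000 resamples.

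The genes whose pattern was most like that of each member were taken by Pearson's r of the residuals from the group means over all 22 arrays, as a description. For Bhlhe40 these were Ccnl1 (0.84), Junb (0.81) and Slc38a2 (0.78). For Cited2 they were Eif4g3 (0.92), Spata2L (0.91) and Srrd (0.90), where the likeness came mostly from the treated arrays (r from 0.93 to 0.98) and less from the vehicle arrays (0.37 to 0.63). For Pfkfb3 they were Depp1 (0.83), Foxo3 (0.78) and Foxp1 (0.77), and for Mxi1 Det1 (0.80), Glo1 (0.79) and Tusc2 (0.79). No member was among the genes most like another member. The others were Macroh2a1, Pdgfra and Mef2c (each 0.71) for P4ha1, Mideas (0.81), H3f3b (0.78) and Spry1 (0.78) for Vegfa, and Disp1 (0.79), Nat8b (0.77) and Lypla2 (0.76) for Egln1. Egln3 was most like Oaz1 (0.79), Ilvbl (0.77) and Map2k2 (0.76), and Adm most like Il36b (0.81), Pdp1 (0.70) and Snai3 (0.69).

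The wider HIF pathway was described through 5 lists drawn up from textbook knowledge, with 81 measured genes of 93 listed. Of these, 13 rose and 3 fell, where 5.31% and 7.05% of all genes did, and the median log2 difference was 0.06. The lists were chosen with earlier results of the same arrays known, so their counts are a description of the lists. Among 12 measured HIF subunits and oxygen sensors only Epas1, the HIF-2 alpha subunit abundant in endothelium and liver, passed. It was at 10.17 ± 0.31 after GSK932121A and 9.86 ± 0.14 after vehicle, 1.24-fold higher (SD; limma, adjusted p = 0.0308). It no longer passed with surrogate variables (adjusted p = 0.986), when all probe sets were tested (0.0563), and without vehicle animal 5 or treated animal 13, 14, 16 or 18, with adjusted p up to 0.0663 (without animal 14). Hif1a, the HIF-1 alpha subunit, differed by -0.01 ± 0.06 (SE), its partner Arnt by -0.02 ± 0.08, the ubiquitin ligase gene Vhl by 0.05 ± 0.10 and the hydroxylase gene Egln2 by -0.16 ± 0.06 (adjusted p = 0.0915), and none of these passed.

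Among 14 measured relatives of the members, 1 rose and 1 fell, where 5.31% and 7.05% of all genes did. Both belong with Mxi1 to the MAX network, as do Mxd1 and Mxd3 of the same list. Mnt, a MAX-binding repressor, rose 1.28-fold (limma, adjusted p = 0.0028), and Mxd4, a MAX dimerisation protein related to Mxi1, fell 1.24-fold (adjusted p = 0.00209). With surrogate variables neither passed (adjusted p = 0.509 for Mnt and 0.0676 for Mxd4). Mxd1 and Mxd3, of the same network, differed by -0.02 ± 0.09 (SE) and 0.11 ± 0.08 and did not pass. Bhlhe41, the close relative of Bhlhe40, differed by -0.16 ± 0.12 (SE), Pfkfb2 by 0.20 ± 0.07 (adjusted p = 0.0711), P4ha2 by -0.25 ± 0.09 (adjusted p = 0.0892) and Bnip3l, a mitophagy receptor related to Bnip3, by -0.22 ± 0.08 (adjusted p = 0.0855), and these did not pass. Of 10 measured ligands and receptors around Vegfa and Adm, only 1 passed, where 12.4% of all genes did. This was Vegfc, a growth factor for lymphatic vessels, 1.18-fold lower (limma, adjusted p = 0.0319). Its call was lost in 6 of the 10 alternatives, with adjusted p from 0.0529 to 0.0848, and without vehicle animal 5 or 6 or treated animal 13, 17 or 21. The VEGF receptor gene Flt1 differed by 0.18 ± 0.07 (SE; adjusted p = 0.104) and the adrenomedullin receptor gene Calcrl by -0.19 ± 0.07 (adjusted p = 0.102).

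Of 18 listed glycolytic HIF targets 12 were measured. Hk1, Tpi1, Gapdh, Pgam1, Eno1 and Pkm had no probe set annotated to them alone. Glycolytic HIF targets had 1 rise and no fall among the 12 measured genes, where 5.31% of all genes rose and 7.05% fell. The median difference of the 12 was 0.09. Passing or not, 10 were higher after GSK932121A and 2 lower, where 8647 of all 18166 genes were higher. Aldoa, the glycolytic enzyme aldolase A, was at 8.72 ± 0.26 after GSK932121A and 8.38 ± 0.17 after vehicle, 1.27-fold higher (SD; limma, adjusted p = 0.013). With surrogate variables its log2 difference was 0.30 and did not pass (adjusted p = 0.182). The phosphofructokinase gene Pfkl differed by 0.17 ± 0.06 (SE; limma, adjusted p = 0.0633) and did not pass. Ldha, lactate dehydrogenase A, differed by 0.00 ± 0.10 (SE), Pgk1, phosphoglycerate kinase, by 0.04 ± 0.09, the glucose transporter gene Slc2a1 by 0.19 ± 0.11 and Pdk1, a kinase that restrains pyruvate dehydrogenase, by 0.16 ± 0.11, and none passed.

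Other HIF targets, the largest of the 5 lists, held most of the changes of the wider lists. Of 33 measured genes 10 rose and 1 fell, where 5.31% and 7.05% of all genes did. The median difference of the 33 was 0.09. This list, too, was chosen with earlier results of the same arrays known. Wsb1, a ubiquitin ligase component, rose 2.23-fold (limma, adjusted p = 4.18e-08), with all 10 treated arrays above every vehicle array, as in 0.457% of all genes. Hmox1, heme oxygenase 1, rose 2.22-fold and Ddit4, an inhibitor of mTOR signalling, 2.41-fold, each with 9 of 10 treated arrays above the vehicle range. Car12, a membrane carbonic anhydrase, rose 2.09-fold, Rora, a nuclear receptor of the clock, 1.90-fold, Tfrc, the transferrin receptor, 1.67-fold, and Tgfb3, a transforming growth factor, 1.57-fold. The growth factor-binding protein gene Igfbp1 rose 3.57-fold, the chemokine receptor gene Cxcr4 1.32-fold, and Edn1, the vasoconstrictor endothelin 1, 1.22-fold. Many of these are also known targets of other pathways, such as the oxidative stress factor NRF2 for Hmox1, insulin and glucocorticoid signals for Igfbp1 and Ddit4, and iron regulatory proteins for Tfrc. Angptl4, an inhibitor of lipoprotein lipase and a PPAR target as well, fell 2.10-fold (adjusted p = 0.000289). With surrogate variables the calls of Ddit4, Car12, Tfrc, Tgfb3, Cxcr4 and Edn1 were lost, with adjusted p from 0.113 to 0.477, and that of Edn1 was also lost by the rank sum test (0.0925), over all probe sets (0.0563) and without vehicle animal 4 or 9 or treated animal 13, 14, 17, 18 or 21.

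Several of the other HIF targets that are often used as markers of HIF activity did not pass. They were named after their values were seen, from the 33 measured genes of which 10 rose and 1 fell. Ankrd37 differed by -0.05 ± 0.07 (SE), the histone demethylase gene Kdm3a by -0.01 ± 0.06, the adenylate kinase gene Ak4 by -0.03 ± 0.11, the lipid droplet gene Hilpda by 0.21 ± 0.13 and Ndrg1 by 0.23 ± 0.09 (adjusted p = 0.109). Car9, a carbonic anhydrase, differed by 0.24 ± 0.09 (adjusted p = 0.0885) and Epo, erythropoietin, by 0.18 ± 0.07 (adjusted p = 0.112).

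**Figure D4:**
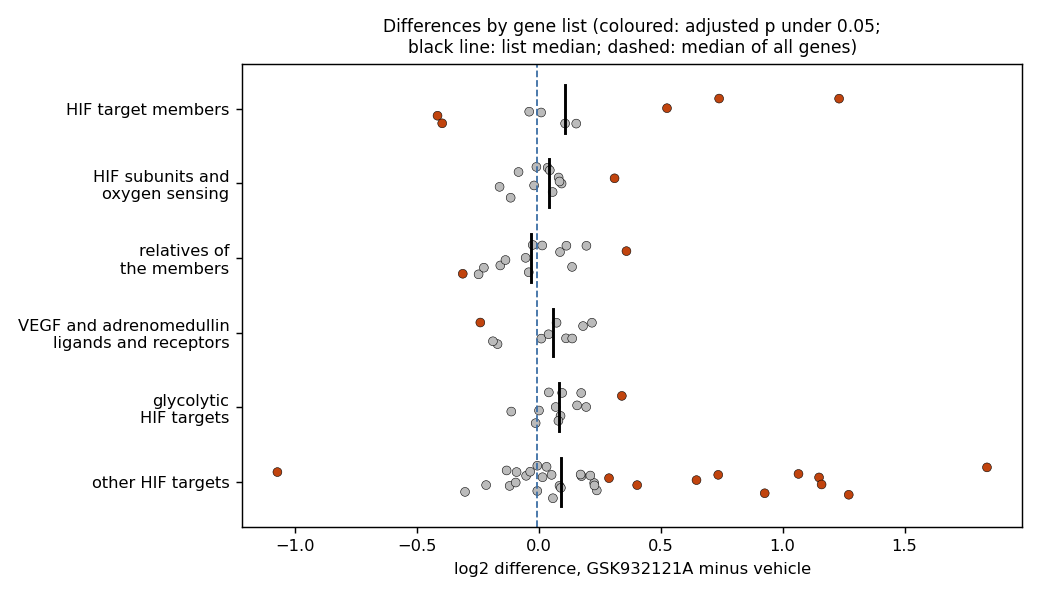
Log2 difference of GSK932121A minus vehicle for each gene of the members and of the 5 wider HIF lists, with coloured points for genes that passed, a black line for each list's median and a dashed line for the median of all genes (-0.01). The glycolytic targets lie between -0.11 and 0.34. The other HIF targets hold both the largest rise and the largest fall, 1.84 for Igfbp1 and -1.07 for Angptl4.

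Markers of other cell types were set beside these lists. Of 4 measured endothelial markers Lyve1 rose 1.16-fold (limma, adjusted p = 0.0201), and the mean level of the 4 lay between 8.00 and 8.23 after GSK932121A and between 7.92 and 8.24 after vehicle. Of 7 macrophage markers Cd163 rose 1.28-fold (adjusted p = 0.00461), and their mean level lay between 7.54 and 7.99 after GSK932121A and between 7.41 and 8.03 after vehicle. None of 5 stellate cell, 4 bile duct, 6 leukocyte and 1 erythroid markers passed. The mean level of the stellate cell markers lay between 6.73 and 7.81 after GSK932121A and between 6.65 and 7.41 after vehicle, and that of the bile duct markers between 4.39 and 5.16 after GSK932121A and between 4.34 and 4.86 after vehicle. In both lists the same 2 treated arrays, those of animals 18 and 24, exceeded every vehicle array. These 2 animals also had the highest treated values of P4ha1, 7.62 in each. In a fit without both, chosen after the data were seen, 3 members rose and 2 fell, and the log2 difference of P4ha1 was -0.47 (limma, adjusted p = 0.000379). The mean level lay between 4.50 and 4.72 after GSK932121A and between 4.44 and 4.77 after vehicle for the leukocyte markers. The 1 erythroid marker, Slc4a1, lay between 5.04 and 6.16 after GSK932121A and between 5.27 and 6.04 after vehicle. For Slc4a1, treated animal 22 was above every vehicle array and 3 treated animals were below. Of 6 hepatocyte markers Cps1 and Arg1, enzymes of the urea cycle, rose 1.25-fold and 1.94-fold, log2 differences of 0.32 and 0.96. The other hepatocyte markers did not pass, with log2 differences of -0.03 for Alb, -0.10 for Ttr, 0.13 for Hnf4a and -0.02 for Serpina1. The mean level of the 6 lay between 11.29 and 11.43 after GSK932121A and between 10.93 and 11.30 after vehicle. In 9 of the 10 treated arrays it was above every vehicle array, with Arg1 and Cps1 having the largest differences of the 6. The part of these markers in the differences of the members was not tested.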

How the data were processed

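Liver RNA of 22 rats was measured on 1 array each. Values deposited by the authors are log2 expression after RMA (background correction, normalisation between arrays, probe set summary), per the submitters' processing notes; which software ran it is not given in the sources used here. Such normalisation removes any shift shared by all genes, and dim probe sets are compressed.

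Of 36685 probe sets, 18511 had 1 gene symbol, 575 several and 17599 none; the brightest stood for each of 18166 genes. Groups were compared in limma (3.58.1, R 4.3.3) with group as the only term, Benjamini-Hochberg adjustment over all genes and moderated confidence intervals. The fit was tested on simulated data. No batch is given in the labels. Values, correlations and motifs used Python 3.11.15, pandas 2.3.3 and scipy 1.17.1.

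The members, lists and alternatives were chosen with earlier results of these data known. Named by rule were all members, the genes of the lists that passed or differed most, and the 3 genes most like each member (mean log2 value at least 5, no unnamed loci or microRNAs). Genes of the lists that did not pass, and all markers, were named after their values were seen.

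Alternatives were median centring, renewed quantile and cyclic loess normalisation, a filter at a mean of 5, trend and robust moderation, array weights, averaged probe sets, all probe sets, the Wilcoxon rank sum test, 5 surrogate variables and each array left out.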

Additional observations from a re-analysis of the deposited data

Results flagged for a closer look

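Vegfa in GSK932121A animal 18 had a log2 value of 9.28, against a next highest treated value of 8.76 and a highest vehicle value of 8.96. The gap to the nearest treated animal was 0.471 of the range of the treated group, above the 95% limit of Dixon's gap test for 10 arrays. Chance alone passes this limit in about 1 in 20 groups, and 9 members were examined. Without this array the log2 difference of Vegfa was -0.07.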

How the results depend on the processing

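No paired analysis was possible because the groups share no replicate numbers. The 5 members that passed also passed with each of the 22 arrays left out; the highest adjusted p was that of Cited2, 0.0497, without GSK932121A animal 23. With the rank sum test 1 member rose. With 5 surrogate variables, which accounted for 45.5% of the variance of group, 1 member rose and 0 fell, 5 wider HIF genes rose and 1 fell, and 603 genes passed in all, against 2244 without them. In that fit the differences of Cited2 (-0.17), Vegfa (-0.19) and Egln1 (0.068) changed sign; with array weights that of Vegfa did (-0.0040). With GSK932121A animals 18 and 24 left out together, an alternative chosen after the data were seen, the difference of Vegfa was -0.033. The cause was not tested. With a filter at a mean log2 value of 5, which tests fewer genes, 5 wider HIF genes fell; the count was also 5 without vehicle animal 1 or 9. Over the left-out arrays, the log2 difference of Vegfa ran from -0.070 to 0.052, that of Egln1 from -0.078 to 0.0047, that of Egln3 from 0.069 to 0.25, that of Adm from 0.050 to 0.15 and the falls in the wider lists from 2 to 5. Dim members such as Egln3 are limited by signal over background.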
